A study of Mus musculus with 9 samples.

Results

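The mouse hypothalamus transcribes a large set of potassium channel genes, and 78 of the 14351 genes in the table of normalized expression are described here: every row whose symbol starts with Kcn, the name shared by the genes of potassium channel pores and of the auxiliary proteins that bind them. The rule reads names only, in a table that had already been filtered on low CPM. By role, 27 of them encode voltage-gated pore subunits (Kcna, Kcnb, Kcnc, Kcnd, Kcnh and Kcnq), 9 encode electrically silent subunits that work only inside a voltage-gated channel (Kcnf, Kcng, Kcns and Kcnv), 13 encode inward rectifiers (Kcnj), 9 encode two-pore-domain leak channels (Kcnk), 7 encode channels opened by calcium or sodium (Kcnma, Kcnn and Kcnt) together with their relative Kcnu1, which responds to voltage and alkaline pH and 13 encode auxiliary proteins (Kcnab, Kcne, Kcnip, Kcnmb and Kcnrg). GENCODE release 21 lists 94 protein-coding Kcn genes. Those outside the table were not analysed here.

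The study asked what changes in the hypothalamus of mice that lack Clic1, a protein that exists in a soluble form and as a chloride channel in membranes. RNA-seq libraries came from male whole-body Clic1 knockout (KO, 5 libraries) and wild-type mice (WT, 4 libraries), described as littermates on normal chow. The study's methods give a CD-1 background, whereas the labels give the strain C57b/6J, and the age at collection is not given in the sources used here. Nothing in the labels states that each library is a separate animal, so the p-values measure the spread between these libraries. The labels also name frozen perigonadal adipose tissue as the material. None of the 5 adipose marker genes listed (Adipoq, Plin1, Lep, Cidec and Fabp4) was among the measured genes, while all 11 hypothalamic markers listed were measured.

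The label of replicate 10 is contradictory. Its description and its column in the table carry the K prefix of the KO libraries, but its title and its treatment label call it WT. It was placed in KO, and results that turn on it are given without it as well. Clic1 itself, the deleted gene, read 1.93, 1.32, 0.733, 1.25 and 1.43 CPM (read counts scaled to the size of the library) in KO replicates 2, 4, 6, 8 and 10 and 5.52, 4.66, 5.3 and 3.58 CPM in WT replicates 1, 3, 9 and 11. Every KO library, replicate 10 included, lay below every WT library, with a log2 difference of -1.80 (95% interval -2.38 to -1.22, limma adjusted p = 0.0153). The adjusted p was 0.0893, 0.0826 and 0.0702 when WT replicate 1, 3 or 9 was left out and 0.501 when replicate 10 was counted as WT. Estimated depth ran from 5.45 M to 20.8 M reads in KO, the deepest being replicate 10, and from 7.27 M to 11 M reads in WT.

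Potassium channels let potassium leave the cell along its gradient, which pulls the membrane back towards its resting voltage and shapes how often and how long a neuron fires. Voltage-gated members end the action potential, inward rectifiers and leak channels hold the resting voltage, and calcium-activated members follow bursts of firing. In the hypothalamus, ATP-sensitive channels built from Kcnj11 pores link the energy state of a neuron to its firing, and G protein-gated channels built from Kcnj3, Kcnj5, Kcnj6 and Kcnj9 let transmitters and peptides silence neurons.

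What the pore genes share beyond their names is the selectivity filter, the stretch of the pore loop where dehydrated potassium ions pass. The filter was searched for in the longest coding sequence of each gene, in frame and on the coding strand only, as 4 codons in a row. These were a codon with T as its middle base, a glycine codon, a tyrosine codon and a glycine codon, or the same run with a codon starting TT, for phenylalanine or leucine, in place of the tyrosine codon where the leading codon started GT or AT. The codons were settled after a first choice missed Kcnc and Kcnd genes and a wider one matched many genes outside the family, so the counts describe the family and test nothing. The motif was found in 64 of the 78 genes, against 515 of 14291 genes of the table with a complete coding sequence (3.6%). All 27 voltage-gated, 9 silent, 13 inward rectifier and 7 genes of the calcium- or sodium-activated group with Kcnu1 held 1 match. Among the two-pore-domain genes, whose proteins carry a pair of pore loops, 7 of 9 held 2 matches, Kcnk6 held 1 and Kcnk1 held 0. A missing match in Kcnk6 or Kcnk1 means only that the codons set here were not found, not that the filter is absent. None of the 13 auxiliary genes held a match, and these encode no pore. The stretches of 30 bases below are shown for the genes on which the levels and differences turn. Each is printed 5′ to 3′ on the coding strand with the filter motif in capitals, lies in 1 coding exon, and comes from GENCODE release 21 on GRCm38.
Kcnj9, chr1:172326175-172326204, minus strand: gagaccaccATCGGCTATGGGcaccgggtc
Kcnj10, chr1:172369296-172369325, plus strand: cagaccaccATCGGCTATGGCttccgctac
Kcnj3, chr2:55437621-55437650, plus strand: gaggccaccATCGGCTATGGCtaccgctac
Kcna2, chr3:107105218-107105247, plus strand: atgacaactGTAGGCTATGGAgacatggtt
Kcnc1, chr7:46427967-46427996, plus strand: atgacgacaCTGGGCTATGGAgacatgtat
Kcnq3, chr15:66023722-66023751, minus strand: ctggccaccATTGGTTATGGAgacaagaca
Kcnma1, chr14:23528404-23528433, minus strand: atgtctacaGTGGGTTATGGGgacgtttat

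Expression levels spanned more than 2 orders of magnitude. Levels are compared between genes only per kilobase of the longest coding transcript, and in WT libraries they ran from 0.341 CPM per kb for Kcns1 to 131 for Kcnj10, with a median over the 78 genes of 7.75 CPM per kb. Kcnj10 encodes Kir4.1, the inward rectifier through which astrocytes take up potassium. Among the next most abundant was Kcnab2 at 49, a cytoplasmic beta subunit of Kcna channels. Kcnc1, which gives fast-spiking neurons their brief action potentials, stood at 37.5 CPM per kb. Kcnn3, a small-conductance calcium-activated channel, stood at 33.5, Kcna2, an axonal delayed rectifier, at 33.3 and Kcnip4, a calcium-binding partner of Kcnd channels, at 33.1. The order depends on the transcript length used. With the median length of a gene's coding transcripts, Kcna2 stood at 88.3 CPM per kb and Kcnma1 at 86.8, both above Kcnab2 at 54.4.

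**Figure D1:**
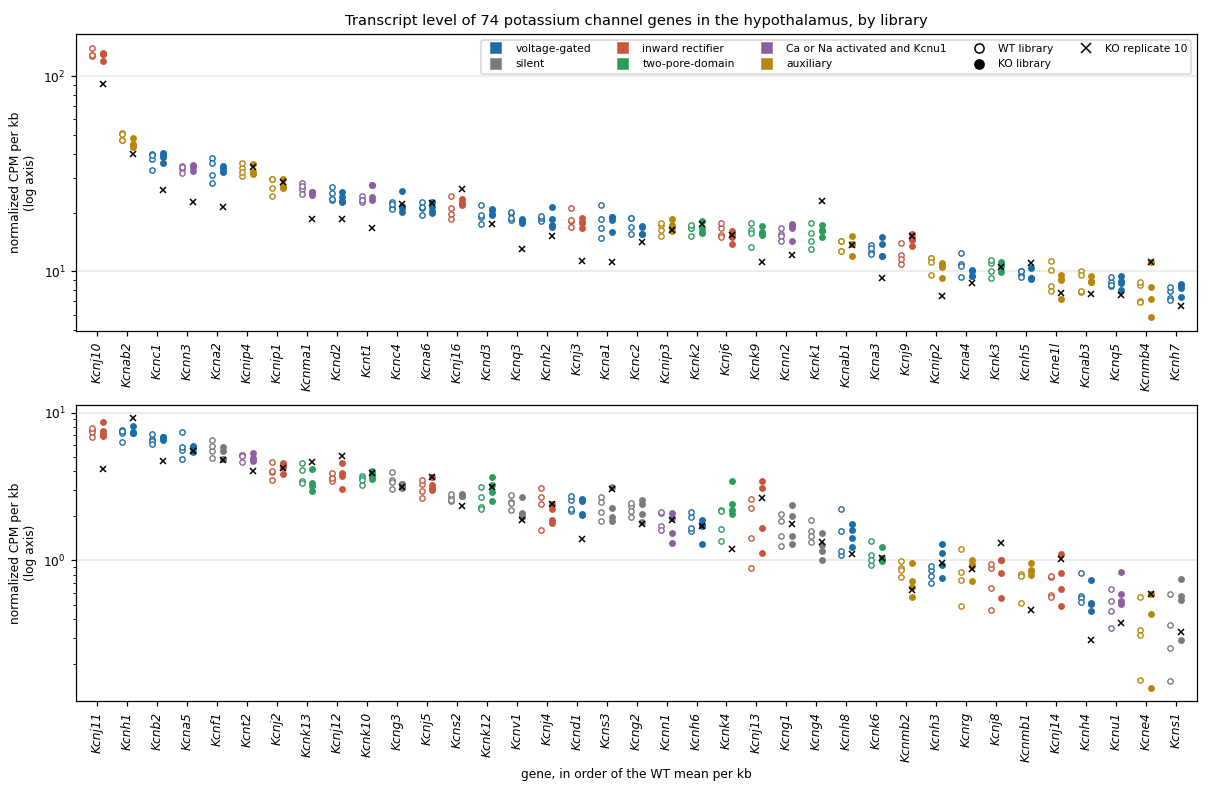
Each point is the normalized CPM per kb of transcript (log axis) of 1 of 74 potassium channel genes in 1 library, with genes in order of their WT mean, open points for WT, filled points for KO and a cross for KO replicate 10. Kcnj10 stands above all others at 131 CPM per kb in WT, and the crosses lie under the filled points for many of the abundant genes.

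None of the 78 genes passed the test between KO and WT. At a limma adjusted p under 0.05, 41 of 14351 genes were called (0.286% of the table), 20 higher (0.139%) and 21 lower (0.146%) in KO, and 0 of these were potassium channel genes. At an unadjusted p under 0.05 the count was 2 of 78 (2.56%), Kcnj9 and Kcnab2, where 933 of all 14351 genes reached it (6.5%). Limma-voom on reads estimated from the table also called 0 of 78, with the same 2 genes at an unadjusted p under 0.05, where it called 0.251% of all genes and put 7.83% at that unadjusted p. With sample weights 0 of 78 were called and 4 had an unadjusted p under 0.05, against 0.941% and 11.6% of all genes. No potassium channel gene had KO and WT libraries without overlap, where 3.41% of all genes did. Without KO replicate 10 the counts were again 0 at the adjusted threshold (0.606% of all genes), 0 without overlap (6.06%) and 2 at an unadjusted p under 0.05 (10.5%). With replicate 10 counted as WT, 0 of 78 were called (0.0348% of all genes), 0 lacked overlap (3.07%) and 1 had an unadjusted p under 0.05 (6.65%). Leaving out another library gave 1 potassium channel gene without overlap for KO replicate 2 (4.62% of all genes) or WT replicate 1 (4.86%). The number was 2 without KO replicate 6 (5.16%), KO replicate 8 (5.15%), WT replicate 3 (5.23%) or WT replicate 11 (5.53%), and 3 without KO replicate 4 (5.27%) or WT replicate 9 (6.21%).

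Differences were small in both directions. The log2 difference of KO minus WT was above 0 for 36 of the 78 genes, as it was for 50.4% of all genes, and the median was -0.02 against 0.00089 for all genes. It ran from -0.33 for Kcnh4 to 0.56 for Kcns1, both at low expression (WT means 2.45 and 0.924 CPM). Without KO replicate 10, 47 of 78 were above 0 and the median was 0.02. The intervals say how large a difference these libraries could have missed. The 95% interval lay within 0.5 on both sides of 0 on the log2 scale, which is 1.41-fold, for 55 of the 78 genes, and for 69.7% of all genes. Of the 45 potassium channel genes with a WT mean of at least 20 CPM, 43 had such an interval, and of the 33 below that level, 12 did. All but 3 of the 78 had an interval within 1 on the log2 scale.

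**Figure D2:**
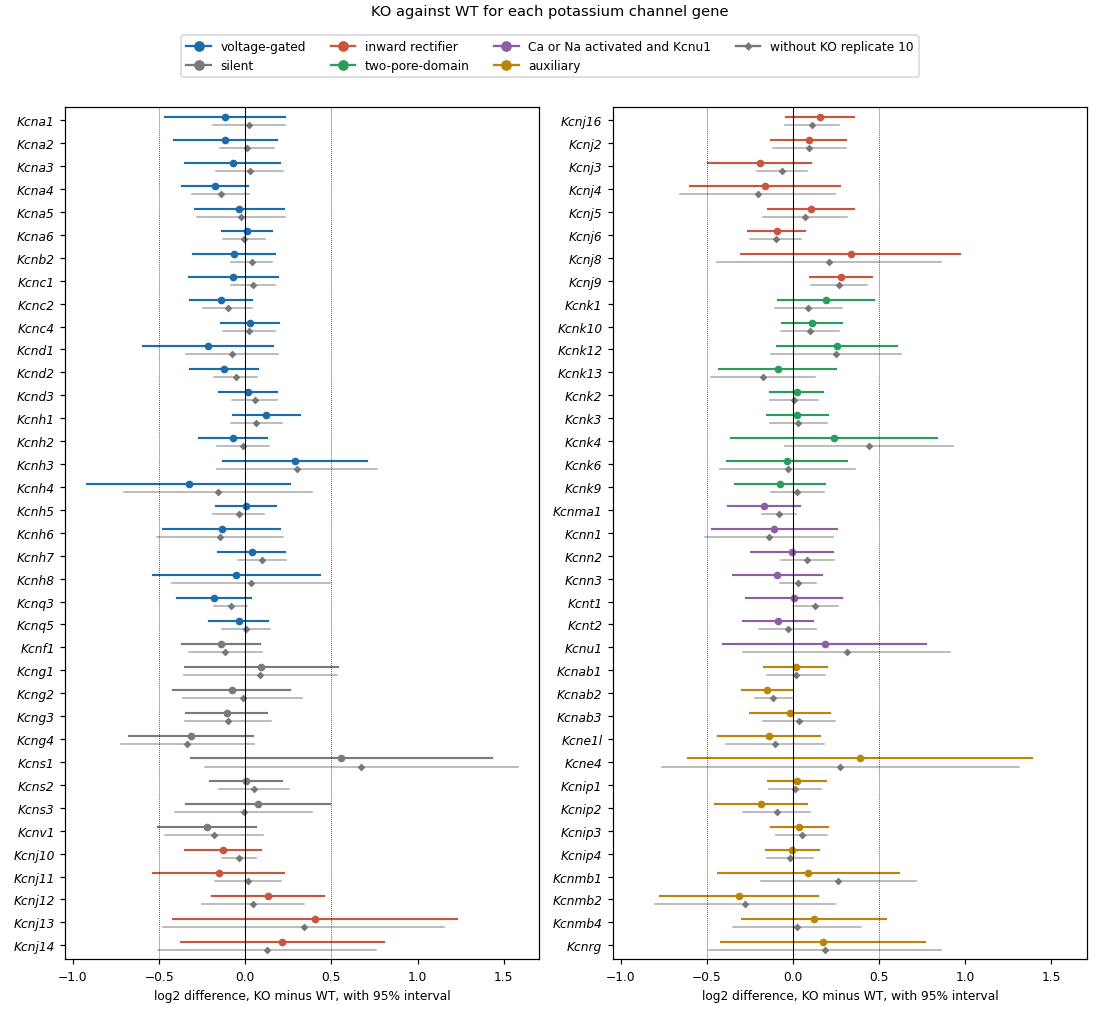
Each coloured point is the log2 difference of KO minus WT for 1 of 74 potassium channel genes with its 95% interval from limma, the grey diamonds give the same without KO replicate 10, and dotted lines mark 0.5 on both sides of 0. The interval of Kcnj9 lies above 0 (0.10 to 0.46) and that of Kcnab2 below it (-0.30 to -0.0062), while the other intervals drawn cross 0.

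Of the inward rectifiers, 8 of 13 had a log2 difference above 0 and 5 below, with a median of 0.11. Kcnj9, which encodes GIRK3, a G protein-gated subunit, had the smallest p of all 78 genes (ENSMUSG00000038026, chr1:172320501-172329318). Its level was 57.3, 52.2, 59.5, 55.5 and 58.8 CPM in KO replicates 2, 4, 6, 8 and 10 and 46.9, 42, 44.5 and 53.6 CPM in WT replicates 1, 3, 9 and 11. All KO libraries but replicate 4 lay above every WT library, and replicate 4 lay just under WT replicate 11. The log2 difference was 0.28 (95% interval 0.10 to 0.46, fold 1.22), with p = 0.00528 in limma and an adjusted p of 0.46, and an exact two-sided permutation test gave p = 0.0317, where 0.0159 is the smallest that 5 against 4 libraries allow. Without KO replicate 10 the log2 difference was 0.27 and the adjusted p 0.184. Over all alternatives its adjusted p ran from 0.135 to 0.92, so at no setting did Kcnj9 pass. An antisense gene, Gm36937, covers 4.01% of its exon bases, and the strand used in counting is not given in the sources used here.

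The other G protein-gated subunits had intervals that crossed 0. Kcnj3 (GIRK1) read 86.9, 98.1, 93.2, 92.1 and 58.6 CPM in KO and 94.5, 110.1, 87.7 and 95.3 CPM in WT in the same order of replicates, with a log2 difference of -0.19 (95% interval -0.49 to 0.10). Its value in KO replicate 10 was the lowest of the 9 and without that library the log2 difference was -0.06. Kcnj6 (GIRK2) had a log2 difference of -0.09 (-0.26 to 0.07) and Kcnj5 (GIRK4) one of 0.11 (-0.14 to 0.36). The difference between these subunits was not tested. Kcnj9 and Kcnj10 are neighbours on chromosome 1, 11.9 kb apart.

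Kcnj10, the most abundant member per kb of the longest coding transcript, measured 704, 715, 644, 699 and 495 CPM in KO and 685, 755, 691 and 698 CPM in WT. The first 4 KO libraries overlapped the WT range and replicate 10 lay far under it. The log2 difference was -0.13 (95% interval -0.35 to 0.09, adjusted p = 0.862 in limma), and -0.04 without replicate 10. In replicate 10 the sum of 5 astrocyte markers was 2033 CPM, above the 1531 to 1688 of the other KO libraries. Kcnj10 and this sum thus moved in opposite directions in that library. The part of the astrocyte share of that tissue in the Kcnj10 value was not tested. In bulk tissue the number of cells of a type and the RNA per cell cannot be told apart. Kcnj16, the partner of Kcnj10 in glial heteromers, read 81.4, 81.1, 83.3, 86.8 and 98.1 CPM in KO and 73, 89.9, 68.3 and 78.2 CPM in WT. All WT libraries but replicate 3 lay under every KO library, for a log2 difference of 0.16 (-0.04 to 0.36). Without KO replicate 10, the highest of the 9 libraries for Kcnj16, it was 0.11 (-0.05 to 0.27). The ATP-sensitive pore Kcnj11 was 23.6, 22.4, 26.9, 21.9 and 13 CPM in KO and 24.1, 23.3, 21.6 and 24.5 CPM in WT. Outside replicate 10 its KO libraries overlapped the WT range, and its log2 difference moved from -0.15 to 0.02 without that library. Exon bases of Kcnj13 overlap those of Gigyf2 by 49.1% and those of Kcnj3 overlap Gm26794 by 31.1%, so their levels are uncertain.

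Among the voltage-gated pores, 9 of 27 genes had a log2 difference above 0 and 18 below, with a median of -0.07, and without KO replicate 10 the median was 0.02. Their summed level was 2848, 2797, 2908, 2732 and 2249 CPM in KO replicates 2, 4, 6, 8 and 10 and 2794, 2974, 2564 and 2899 CPM in WT. The KO mean was 96.4% of the WT mean with replicate 10 and 100.5% without it.

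Kcnq3, a slow channel that opens near firing threshold, had 210.2, 214, 218, 214 and 154 CPM in KO and 234, 237, 217 and 221 CPM in WT. The groups met only at KO replicate 6 and WT replicate 9. The log2 difference was -0.18 (95% interval -0.40 to 0.04, adjusted p = 0.807 in limma), and an exact permutation test gave an unadjusted p = 0.0317. KO replicate 10 was the lowest of the 9 libraries, and without it the log2 difference was -0.08 with an adjusted p of 0.55. With each library rescaled to the same sum, the groups of Kcnq3 no longer overlapped. That held for 1 of the 78 genes (1.28%), against 3.39% of all genes under the same scaling.

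Kcna4, an A-type channel, read 45.5, 48, 48.7, 45.2 and 41.6 CPM in KO and 52.5, 59.6, 45 and 50.8 CPM in WT. WT replicate 9 lay among the KO libraries and the other WT libraries lay above all of them. Its log2 difference was -0.18 (-0.37 to 0.02, adjusted p = 0.788 in limma), and -0.14 without KO replicate 10, its lowest library. Kcnc2, a fast delayed rectifier, read 78.3, 84.9, 86.3, 77.9 and 71.3 CPM in KO and 85.4, 94.5, 78.1 and 94.1 CPM in WT. Its groups overlapped widely with a log2 difference of -0.14 (-0.32 to 0.04), and -0.10 without KO replicate 10, its lowest library. Kcnh3, at 4.12, 3.43, 4.76, 2.81 and 3.56 CPM in KO and 3.17, 2.59, 3.4 and 2.89 CPM in WT, had a log2 difference of 0.29, but at this level the interval ran from -0.13 to 0.70.

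The members that led their voltage-gated subfamilies per kb had intervals that crossed 0. Kcna2 was 401, 373, 391, 380.3 and 248 CPM in KO and 359, 442, 328 and 414 CPM in WT, a log2 difference of -0.12 (-0.42 to 0.18) that became 0.01 without KO replicate 10. Kcnc1 was 307, 301, 312, 278 and 203 CPM in KO and 292, 310.1, 257 and 306 CPM in WT, and its log2 difference moved from -0.07 to 0.04. In both genes replicate 10 was the lowest of the 9 libraries and the other KO libraries lay within the range of WT or close to it. Kcnd2, which carries A-type current in dendrites, stood at 117 ± 13.3 CPM in KO (SD, n = 5) and 127 ± 8.99 CPM in WT (SD, n = 4) and had a log2 difference of -0.13 (-0.32 to 0.07). Kcnh2, the ERG channel, stood at 75.2 ± 9.72 CPM in KO (SD, n = 5) and 78.5 ± 2.27 CPM in WT (SD, n = 4) with a log2 difference of -0.07 (-0.27 to 0.13). Without KO replicate 10 the log2 difference was -0.05 for Kcnd2 and -0.01 for Kcnh2.

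**Figure D3:**
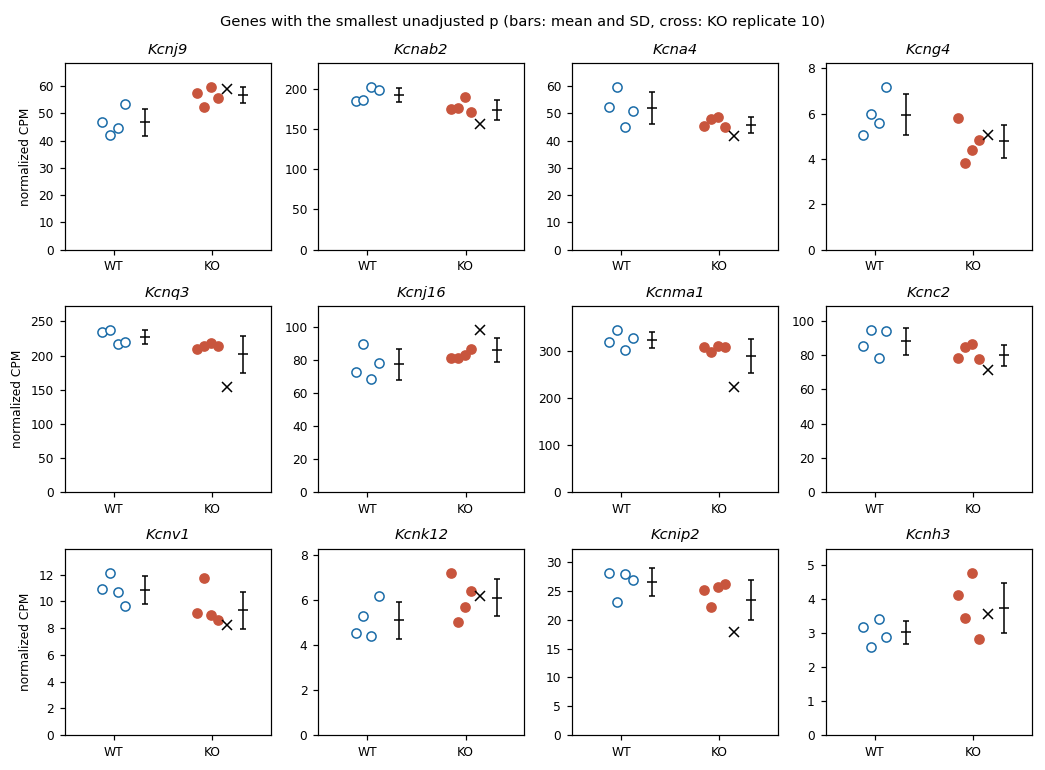
Normalized CPM in each WT library (open) and KO library (filled, cross for replicate 10) for the 12 potassium channel genes with the smallest unadjusted p, with the mean and SD of each group as bars and every axis starting at 0. Kcnj9 is higher in KO, with 1 KO library reaching into the WT range. In Kcna4, Kcnab2, Kcnc2, Kcnip2, Kcnma1, Kcnq3 and Kcnv1 the cross stands under all other points.

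The silent subunits were all expressed at a low level, from 0.341 CPM per kb for Kcns1 to 5.7 for Kcnf1. Of the 9, 4 had a log2 difference above 0 and 5 below. Kcng4 read 5.8, 3.82, 4.4, 4.85 and 5.04 CPM in KO and 5.06, 6.01, 5.6 and 7.16 CPM in WT. KO replicate 2 lay within the WT range and the other KO libraries below it, for a log2 difference of -0.31 (-0.67 to 0.05, adjusted p = 0.794 in limma). Kcnv1 was 9.14, 11.7, 8.97, 8.6 and 8.21 CPM in KO and 10.9, 12.1, 10.7 and 9.64 CPM in WT. The Kcnv1 log2 difference was -0.22 (-0.51 to 0.06), and -0.18 without KO replicate 10, its lowest library. Kcnf1 stood at 24.7 ± 2.34 CPM in KO (SD, n = 5) and 27.3 ± 3.19 CPM in WT (SD, n = 4), a log2 difference of -0.14 (-0.37 to 0.09). Kcng3 stood at 10.7 ± 0.349 CPM in KO (SD, n = 5) and 11.6 ± 1.27 CPM in WT (SD, n = 4) (-0.11, -0.34 to 0.13, on the log2 scale). Kcns2 read 14.8, 14.9, 15.4, 14.9 and 12.8 CPM in KO and 13.8, 14.6, 15.4 and 14.1 CPM in WT (0.0049, -0.20 to 0.21).

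The two-pore-domain leak channels had a KO mean closest to WT of the 6 roles with all libraries in. Of the 9 genes, 6 had a log2 difference above 0 and 3 below. Their summed level was 382, 377, 404, 379.5 and 346 CPM in KO and 394, 403, 349 and 363 CPM in WT, the KO mean being 100.1% of the WT mean and 102.2% of it without replicate 10. Kcnk2 (TREK1) was the most abundant of them per kb, at 57.1, 55.9, 59.7, 64.3 and 62.2 CPM in KO and 59.7, 59.9, 61.8 and 54.5 CPM in WT, and its log2 difference was 0.02 (-0.13 to 0.18). Kcnk3 (TASK1) had a log2 difference of 0.03 (-0.15 to 0.20). Kcnk9 (TASK3) read 195, 190.2, 210.3, 189.7 and 138 CPM in KO and 199.8, 218, 163 and 194 CPM in WT, with KO replicate 10 the lowest of all 9 libraries and a log2 difference of -0.08 that became 0.03 without it. Kcnk12 had 7.21, 5.01, 5.68, 6.41 and 6.18 CPM in KO and 4.52, 5.28, 4.4 and 6.2 CPM in WT, groups that overlapped, and a log2 difference of 0.26 (-0.09 to 0.61). Kcnk4 (TRAAK), at a WT mean of 3.23 CPM, was the single potassium channel gene at an unadjusted p under 0.05 when replicate 10 was counted as WT, with an adjusted p of 0.72.

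Of the 6 roles, the channels opened by calcium or sodium, with Kcnu1, had the lowest sum in replicate 10 relative to WT. Their summed level was 667, 625, 676, 646 and 464 CPM in KO and 658, 672, 619.7 and 662 CPM in WT. Replicate 10 stood at 71.1% of the WT mean, and the KO mean was 94.3% of the WT mean with it and 100.1% without it. Kcnma1, the large-conductance BK channel, read 308, 298, 310.0, 309 and 224 CPM in KO and 319, 345, 302 and 329 CPM in WT. WT replicate 9 fell among the KO libraries and the other WT libraries lay above them. The log2 difference was -0.17 (95% interval -0.38 to 0.04, adjusted p = 0.822 in limma) and -0.08 without replicate 10. Kcnn3 read 94.7, 99.9, 101, 99 and 65.2 CPM in KO and 99.5, 96.9, 91.8 and 98.8 CPM in WT, with log2 differences of -0.09 and 0.03. Kcnt1, a sodium-activated channel, read 162, 141, 164, 137 and 98.2 CPM in KO and 144, 137, 134 and 137 CPM in WT. Its log2 difference was 0.0067 (-0.27 to 0.28) and 0.13 without replicate 10, with an adjusted p of 0.485. Kcnu1, a gene best known from sperm, was near the floor of the table at 2.01 ± 0.586 CPM in KO (SD, n = 5) and 1.74 ± 0.431 CPM in WT (SD, n = 4), a log2 difference of 0.18 (-0.40 to 0.77).

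Of the 13 auxiliary genes, 7 had a log2 difference above 0 and 6 below. The most abundant of them per kb was Kcnab2 (ENSMUSG00000028931, chr4:152390742-152477871). Its level was 174, 176, 189.9, 171 and 156 CPM in KO and 185, 185, 201 and 198 CPM in WT. All KO libraries but replicate 6 lay below every WT library. The log2 difference was -0.15 (95% interval -0.30 to -0.0062, fold 0.9), with p = 0.0422 and an adjusted p of 0.759 in limma, and an exact two-sided permutation test gave p = 0.0476. Without replicate 10 the log2 difference was -0.11 with an adjusted p of 0.434. Its relatives Kcnab1 and Kcnab3 had log2 differences of 0.02 (-0.17 to 0.20) and -0.01 (-0.25 to 0.22). Of the Kcnd partners, Kcnip2 read 25.1, 22.1, 25.6, 26.3 and 18 CPM in KO and 28.1, 23, 28 and 26.9 CPM in WT, a log2 difference of -0.19 (-0.45 to 0.08). Without replicate 10 the Kcnip2 difference was -0.09. Kcnip4 stood at 79.2 ± 4.04 CPM in KO (SD, n = 5) and 79.4 ± 5.5 CPM in WT (SD, n = 4), a log2 difference of -0.0024 (-0.15 to 0.15). The neuronal BK beta subunit Kcnmb4 stood at 11.9 ± 3.27 CPM in KO (SD, n = 5) and 10.7 ± 1.33 CPM in WT (SD, n = 4), a log2 difference of 0.12 (-0.30 to 0.54), and the antisense genes Kcnmb4os2 and Kcnmb4os1 cover 20.8% and 10.7% of its exon bases. Without replicate 10 the Kcnmb4 difference was 0.02. Kcne1l had 13.2 ± 1.58 CPM in KO (SD, n = 5) and 14.6 ± 2.39 CPM in WT (SD, n = 4) (-0.14, -0.43 to 0.16, on the log2 scale) and Kcnrg 1.63 ± 0.194 CPM in KO (SD, n = 5) and 1.48 ± 0.527 CPM in WT (SD, n = 4) (0.18, -0.42 to 0.77). The summed level of the 13 auxiliary genes was 97.2% of WT in KO without replicate 10 and 96.1% with it.

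Summed over all 78 genes, the level was 5532, 5473, 5603, 5394 and 4453 CPM in KO and 5469, 5779, 5173 and 5592 CPM in WT. The KO mean was 96.1% of the WT mean. Without replicate 10 the KO libraries spanned 5394 to 5603 CPM, inside the WT range of 5173 to 5779, and their mean was 99.95% of the WT mean. Replicate 10 stood at 80.9%.

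**Figure D4:**
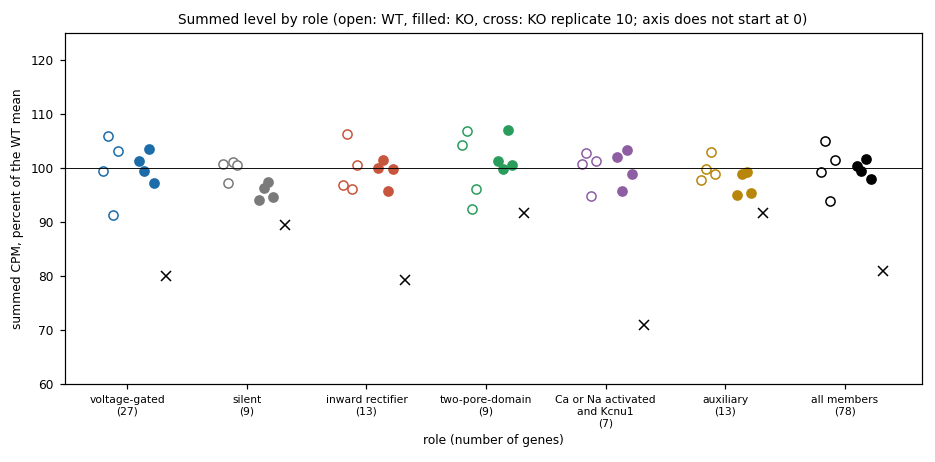
Summed CPM of the potassium channel genes of each role in each library as a percent of the WT mean, with open points for WT, filled points for KO and crosses for KO replicate 10; the axis starts at 60. The crosses lie at 71.1% for calcium- or sodium-activated channels with Kcnu1, 80.1% for voltage-gated pores and 79.3% for inward rectifiers. They lie at 91.7% for auxiliary genes, 89.5% for silent subunits and 91.8% for two-pore-domain channels, and in each role under every other library. Within the inward rectifier sum, 846 CPM in replicate 10 and 1067 CPM in the WT mean, Kcnj10 alone gave 495 and 707 CPM.

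KO replicate 10 stood apart in many of these genes, unevenly across the family. The median coefficient of variation over the 78 genes was 13.5% among all KO libraries, 7.91% among those without replicate 10 and 10.4% among WT libraries. Measured from the mean of the other KO libraries on the log2 scale, its median over the 78 genes was -0.16, against 0.0036 over all genes. It was the lowest of the 9 libraries in 35 of the 78 genes (44.9%), where it was lowest in 28.3% of all genes and highest in 30.1%. A deviation under -0.5 was seen in 16 of the 78 (20.5%) and in 12.6% of all genes. By role, it was the lowest KO library in 20 of 27 voltage-gated genes and 6 of 7 genes of the calcium- or sodium-activated group with Kcnu1, and in 3 of 13 inward rectifiers. The share of all genes in which it was the lowest KO library was not computed, so how unusual these counts are was not tested. Low values included Kcna1, at 73.7, 64.2, 76.6, 76.2 and 44.9 CPM over the KO libraries with replicate 10 last. High values included Kcnk1, at 36.6, 35.9, 38.5, 33.3 and 50.9 CPM. As a description of this library, the deviation had a Spearman correlation of -0.37 with transcript length across the 78 genes. Across 12063 genes averaging 5 CPM or more it was -0.26. With mean expression level the correlations were -0.27 and -0.05 in the same sets of genes. The part of tissue composition, RNA length or its contradictory label in this deviation was not tested.

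**Figure D5:**
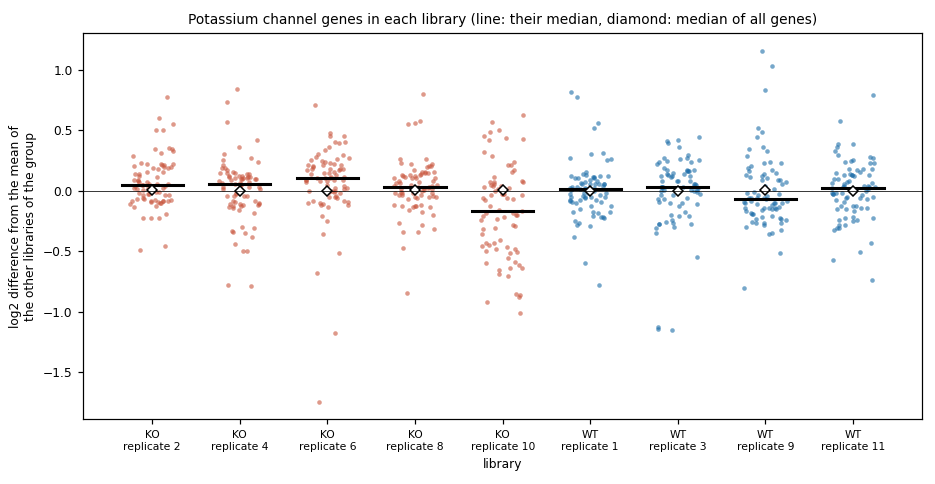
Each point is 1 potassium channel gene in 1 library, as the log2 difference from the mean of the other libraries of its group, with a line at the median of the 78 genes and a diamond at the median of all genes. The line lies at -0.16 for KO replicate 10 and between -0.06 and 0.1 for the other libraries.

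Genes whose products bind, traffic or counterbalance potassium channels, but whose symbols do not start with Kcn, were read from the same fit. Of 32 listed, 30 were measured and 0 were called in limma, 14 having a log2 difference above 0 and 16 below, from -0.21 to 0.2. Limma gave 1 of the 30 an unadjusted p under 0.05, and the adjusted p was at least 0.652 for all 30. The sulfonylurea receptor Abcc8, which completes the Kcnj11 channel, had a log2 difference of 0.05 (95% interval -0.16 to 0.27). Dpp6 and Dpp10, partners of Kcnd channels, had log2 differences of -0.04 (-0.16 to 0.08) and -0.09 (-0.25 to 0.07). Lrrc55, a BK gamma subunit, had the lowest log2 difference of the 30 at -0.21 and one of -0.02 without KO replicate 10.

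Marker genes of the cell types that the dissection could hold were read from the same table. The sum of 5 endothelial markers lay between 178 and 201 CPM in the KO libraries and between 162 and 168 CPM in the WT libraries, without overlap. Of all genes taken singly, 3.41% lacked overlap. Among the 5 endothelial markers, 0 passed the limma adjusted threshold and 1 had an unadjusted p under 0.05. The sum of 11 hypothalamic markers also did not overlap between groups, with KO libraries at 706 to 858 CPM, WT libraries at 642 to 690.0 CPM, and 1 of the 11 passed the limma adjusted threshold. That gene was also the only 1 of the 11 with an unadjusted p under 0.05 in limma. The median log2 difference over the 11 was -0.0037, so the sums do not describe a shift shared by these markers. In the other marker lists with a measured gene the sums of the groups overlapped. For mural cell markers the KO range was 158 to 246 CPM and the WT range 174 to 198.5 CPM, and for the 3 pituitary markers measured the ranges were 5.25 to 16.4 CPM and 12 to 27 CPM, with a median log2 difference of -1.14. For neuronal markers the KO range was 3572 to 3874 CPM and the WT range 3501 to 4201 CPM. For meningeal markers the ranges were 76.7 to 339 CPM and 90.3 to 190.0 CPM. Their part in the potassium channel values was not tested. The 3 potassium channel genes on chromosome 17, which carries Clic1, lie 17.5 Mb (Kcnh8), 48.5 Mb (Kcng3) and 52.7 Mb (Kcnk12) from it, and had log2 differences of -0.05, -0.11 and 0.26.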

How the data were processed

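The values are normalized read levels per gene, one column per library, of the unit here called signal. The deposited signal behaves as CPM, read counts scaled to library size, which the authors scaled by trimmed mean of M-values with edgeR, since its low values step as whole reads do. Per the study's methods, reads were trimmed (Trimmomatic 0.38), aligned to GRCm38 (STAR 2.5.1a) and quantified with RSEM 1.3.0, and genes lacking a CPM of at least 1 in 5 libraries were removed, so low potassium channel genes may be missing. Symbols came from the authors' results table, joined by gene identifier, and its columns of fold changes and p-values were not used. A further 1 column of per-library values matched no sample and was left out.

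Here log2(CPM + 0.1) was fitted with limma 3.58.1 (R 4.3.3) with an intensity trend and condition as the only term, over all 14351 genes, with Benjamini-Hochberg adjustment and a threshold of 0.05. A fold change on the log2(CPM + 0.1) scale understates that of low genes. The study used limma-voom on counts. Here voom was an alternative, on reads estimated from the table: 81.3 to 86.6% of values up to 2.5 CPM lay within 0.03 reads of a whole number, so the depths are approximate. Single genes also had exact two-sided permutation tests (scipy 1.17.1), not adjusted for the number of genes. Of the 12 genes with the smallest limma p, those other than Kcnj9, Kcnab2 and Kcnq3 had larger permutation p-values. These ran from 0.0635 (Kcng4 and Kcnma1) to 0.175 (Kcnip2). The share of all genes under 0.05 in the permutation test was not computed. Genes named with full values by rule were the 12 with the smallest unadjusted p and the most abundant gene per kb of each subfamily. Kcnj3, Kcnj11 and Kcnk9 were added outside this rule, and each was lowest in KO replicate 10. Values of 4 single genes are not reported here one by one, in text or figures, though they stay in every count and sum. The gene lists and members were chosen with earlier results of these data known. Scripts were tested on simulated data. Alternatives were pseudocounts, a filter on low genes, other scalings, sample weights, no trend, voom, replicate 10 as WT, and leaving out each library.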

Additional observations from a re-analysis of the deposited data

Results flagged for a closer look

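Each of the 74 genes described one by one was checked in each group for a library far from the others of its group by Dixon's ratio at the 95% level, 148 groups in all. Chance alone flags about 1 in 20 groups, which is 7.4 of 148, and 12 were flagged. KO replicate 10 accounts for 8 of them, in each case as the low library. Its level was 248 CPM for Kcna2 against 373 to 401 in the other KO libraries and 70.3 CPM for Kcnb2 against 97.1 to 102. It was 58.6 CPM for Kcnj3 against 86.9 to 98.1, 138 CPM for Kcnk9 against 189.7 to 210.3, and 224 CPM for Kcnma1 against 298 to 310.0. It was 65.2 CPM for Kcnn3 against 94.7 to 101, 154 CPM for Kcnq3 against 210.2 to 218, and 12.8 CPM for Kcns2 against 14.8 to 15.4.

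The other 4 flags fell in 4 libraries. KO replicate 8 was high for Kcnk6 at 5 CPM against 4.03 to 4.25, and KO replicate 4 was high for Kcnv1 at 11.7 CPM against 8.21 to 9.14. WT replicate 1 was low for Kcnmb1 at 2.17 CPM against 3.31 to 3.4. WT replicate 11 was low for Kcnt2 at 26.9 CPM against 29.6 to 29.8.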

How the results depend on the processing

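Under every alternative run, limma called 0 of the potassium channel genes and 0 of the partner genes, with a smallest adjusted p of 0.135 (Kcnj9, sample weights). The count over all genes, 41, was 27 over genes averaging 5 CPM or more, 135 when libraries were weighted, 5 with replicate 10 as WT and 18 to 87 when 1 library was left out, lowest without WT replicate 1 and highest without KO replicate 10. Potassium channel genes without overlap between groups numbered 1 of 78 with every library rescaled to the same sum (3.39% of all genes) and 0 to 3 when 1 library was left out, highest without KO replicate 4 or WT replicate 9. The log2 difference of Clic1 was -1.51 with replicate 10 as WT (adjusted p = 0.501) and -1.94 to -1.62 when 1 library was left out. Of 501 values for the 28 genes named by rule, 463 kept their direction and 38 reversed, 21 of these on leaving out 1 library. The cause was not tested.

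With replicate 10 as WT the log2 difference was 0.136 for Kcna2, 0.145 for Kcnc1, 0.0276 for Kcnd2, 0.0458 for Kcnh2, 0.0169 for Kcnip2, 0.0677 for Kcnj10, -0.00862 for Kcnk2, 0.0270 for Kcnma1, -0.0798 for Kcnmb4, 0.143 for Kcnn3 and 0.0287 for Kcnq3. With sample weights it was 0.00888 for Kcnc1 and -0.0153 for Kcnrg. With voom it was 0.00193 for Kcnip4, -0.0281 for Kcns2 and -0.0159 for Kcnt1, and with equal sums -0.000443 for Kcns2. When 1 library was left out it ranged from -0.191 to 0.0109 for Kcna2, -0.129 to 0.0423 for Kcnc1, -0.0384 to 0.0387 for Kcnip4, -0.016 to 0.0453 for Kcnk2, -0.129 to 0.0294 for Kcnn3, -0.0235 to 0.371 for Kcnrg, -0.0162 to 0.0509 for Kcns2 and -0.0544 to 0.13 for Kcnt1.

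No paired analysis was possible because KO and WT libraries share no replicate number. Leaving out 1 library keeps at least 3 in each group. Below 20 CPM the intervals are wide, with a median half-width of 0.42 on the log2 scale against 0.2 above it, and 12 of the 33 genes below it had an interval within 0.5 on both sides of 0. The 95% intervals cover the spread between these libraries only.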
